A study of Danio rerio with 4 samples.

Results

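Ventricles of wild-type zebrafish (AB strain) were profiled by droplet single-cell RNA sequencing (10x Genomics) at 4 stages of coronary vessel growth, and the step described here is establishment (14 mm body length, 2 months of age, 18 ventricles) against initiation (10 mm, 1.5 months, 25 ventricles). Each stage was 1 pool of ventricles and 1 library from untreated fish, so that stage, age, pool and library cannot be told apart. The later stages, expansion (18 mm, 2.5 months, 12 ventricles) and maturation (28 mm, 8 months, 5 ventricles), serve here as context. A cell was a barcode with at least 2500 unique molecular identifiers (UMIs, each standing for a captured RNA molecule), at least 600 genes and at most 12% of UMIs from mitochondrial genes, or at most 40% where the sarcomere genes ttn.1, ttn.2 and myh7l together reached 10 UMIs. This kept 6585 establishment cells and 6921 initiation cells, which are 13506 of the 32092 cells of the 4 libraries.

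All genes were compared between the 2 libraries within 3 gates. The cardiomyocyte gate took cells with 10 or more UMIs of ttn.1, ttn.2 and myh7l together. The endothelial gate took cells with 2 or more UMIs of cdh5, spock3, aqp8a.1 and f8 and fewer than 3 of the sarcomere genes. The epicardial gate took cells with 3 or more UMIs of gcga, postnb and adh8a and 0 of cdh5 and spock3. At least 1 gate was met by 7014 cells of the 2 libraries.

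Coronary vessels of the zebrafish form late, in the juvenile fish, when endothelial cells (ECs) spread over a ventricle that is still gaining muscle. Cardiomyocytes (CMs) make the contractile wall and depend on mitochondrial respiration, the endothelium includes both the endocardium that lines the chamber and the vessels themselves, and the epicardium is the outer cell sheet that supplies growth factors, retinoic acid, matrix and mural cells. The comparison asks which genes of these cell classes differ between the stage when the first vessels appear and the stage when they extend over the ventricle.

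The CM gate held 2022 establishment cells, 30.7% of that library (exact Clopper-Pearson 95% interval 29.6 to 31.8), and 1367 initiation cells, 19.8% (18.8 to 20.7). The EC gate held 2016 establishment cells (30.6%) and 1185 initiation cells (17.1%). The epicardial gate was the smallest of these, with 249 establishment cells (3.78%) and 206 initiation cells (2.98%). The UMI minimum and the number of blood cells can set such shares, and cells with over 50% globin UMIs numbered 1413 at establishment and 2113 at initiation. The limit on sarcomere UMIs in the EC gate can do so too, since ambient CM RNA differed between the libraries, as given below. Its effect on the share and depth of the EC gate was not tested. Median UMIs per cell were 15836 at establishment and 10566 at initiation in the CM gate, 6791 and 8587 in the EC gate, and 11374 and 11727 in the epicardial gate. The 2 libraries shared 9 cell barcodes.

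The gates carried the markers of their labels. Levels are UMIs per 1000000 UMIs of the gated cells (CPM). In the CM gate 9 CM markers outside the gate rule, none at 0, summed to 63171 CPM at establishment and 34361 CPM at initiation. In the EC gate 10 endothelial markers outside the rule, none at 0, summed to 1791 CPM at establishment and 2678 CPM at initiation, whereas in the epicardial gate they summed to 16.8 and 43.4 CPM. In the epicardial gate the epicardial markers, which include the gate genes gcga and postnb, summed to 3952 CPM at establishment and 3668 CPM at initiation, with none at 0. The 5 thrombocyte markers summed to 1764 and 2008 CPM there. Only 2 of them reached the level for comparison, and most of the sum came from these. The thrombocyte marker mpl was at 0 at establishment and itga2b at 0 at initiation. Of the 7 epicardial markers compared 2 were lower and 0 higher, and tcf21, a transcription factor that defines epicardium, stood at 363 and 377 CPM. Macrophage, neutrophil and lymphocyte markers summed to less than 69 CPM each in every gate of both libraries, while red cell markers summed to between 21726 and 50262 CPM at establishment and between 27362 and 41961 CPM at initiation.

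The CM gate held a different mix of cells in the 2 libraries. Cells with at least 3 UMIs of myh6, the atrial myosin heavy chain of zebrafish, were 45 of the 2022 establishment cells (2.23%) and 322 of the 1367 initiation cells (23.6%). Cells under that minimum with at least 3 UMIs of the smooth muscle genes myh11a and elnb together were 14 establishment cells (0.692%) and 184 initiation cells (13.5%). The remaining cells numbered 1963 at establishment (97.1%) and 861 at initiation (63.0%). The cardiac myosin light chain gene myl7 stood at 28001 CPM at establishment and 14481 CPM at initiation in the remaining cells, at 21369 and 12011 CPM in the myh6 cells, and at 1810 and 386 CPM in the myh11a and elnb cells. CM values are therefore also given for the remaining cells, a separation chosen after the data were seen.

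**Figure D1:**
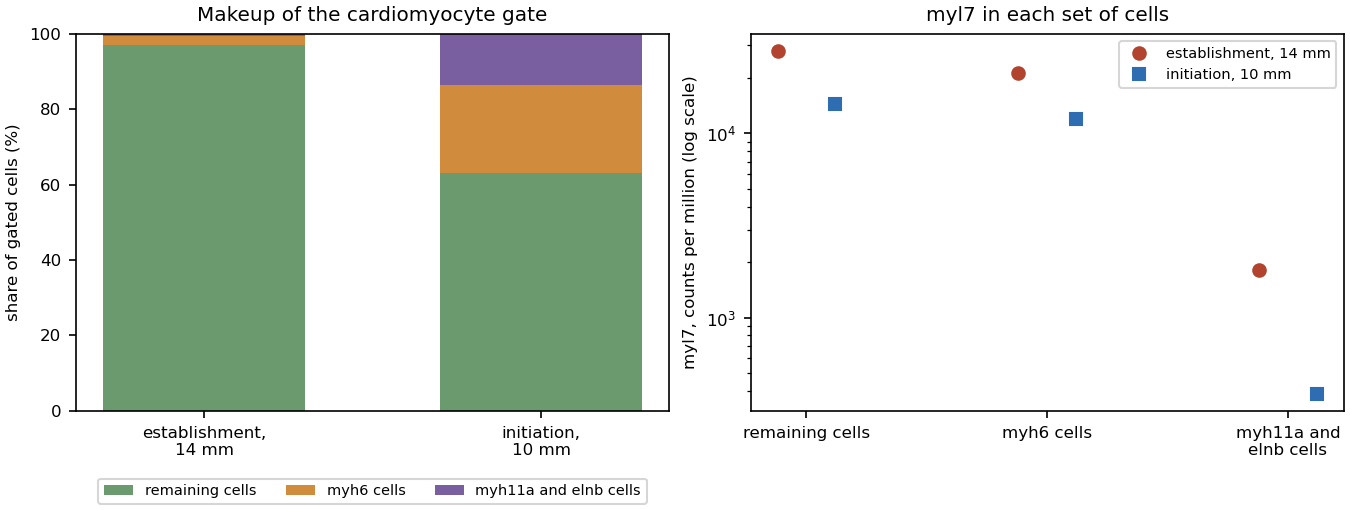
Left, share of gated cells (%) in the cardiomyocyte gate with at least 3 myh6 UMIs, with at least 3 myh11a and elnb UMIs and fewer than 3 of myh6, and remaining; right, myl7 level (CPM, log axis) in each of these sets of cells. The myh6 cells were 2.23% of the gate at establishment and 23.6% at initiation, and myl7 was higher at establishment in each set.

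RNA outside cells also differed. The ambient profile, taken from barcodes of 1 to 100 UMIs, held 18353 CPM of myl7 at establishment and 2788 CPM at initiation. A myl7 UMI was found in 99.95% of establishment cells and 32.2% of initiation cells of the EC gate, and in 100% and 32.5% of the epicardial gate. The CM markers summed to 2436 CPM at establishment and 405 CPM at initiation in the EC gate and to 3708 and 213 CPM in the epicardial gate. EC and epicardial values are therefore also given after subtraction of the ambient profile at the rate set by myl7, cmlc1 and tnnt2a. This rate was 6.56% of UMIs at establishment and 2.03% at initiation in the EC gate, and 10.3% and 2.37% in the epicardial gate. It counts all RNA of these genes in the gated cells as ambient, which was not tested. The globin share of the median cell set lower rates, 0.721% and 0.491% in the EC gate and 0.47% and 0.388% in the epicardial gate.

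UMIs were summed over the gated cells of each library, and a gene was compared where its mean level reached 20 CPM with at least 30 UMIs in the 2 libraries together. With 1 library per stage no test between stages is possible. A fold is the ratio of the summed CPM, with a 95% interval from the exact conditional binomial that covers counting error only, and a gene is called higher or lower where the fold reached 2. In the CM gate 194 of 3826 genes (5.07%) were higher at establishment and 845 (22.1%) were lower, and in the remaining cells alone 99 of 3444 (2.87%) and 274 (7.96%). In the EC gate 308 of 4538 genes (6.79%) were higher and 1100 (24.2%) lower, and after ambient subtraction 286 of 4580 (6.24%) and 1025 (22.4%). In the epicardial gate 423 of 4837 genes (8.75%) were higher and 1390 (28.7%) lower, and after subtraction 424 of 4950 (8.57%) and 1233 (24.9%).

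The balance of higher and lower genes depended on the scale. The median gene had a log2 fold of −0.37 in the CM gate, −0.45 in the EC gate and −0.46 in the epicardial gate. Relative to that median gene, 513 of 3826 genes were higher and 435 lower in the CM gate. In the EC gate 704 and 399 of 4538 were higher and lower, and in the epicardial gate 876 and 558 of 4837. Folds also moved with gene span, the distance from start to end of a gene with its introns. When the genes were ranked by span into 5 groups of like size, the median log2 fold was 0.53 in the group of shortest span and −1.10 in the group of longest span in the epicardial gate, 0.40 and −0.81 in the EC gate, and 0.27 and −0.67 in the CM gate. The group of longest span had 59.2% of its genes lower in the epicardial gate, and the group of shortest span 4.53%. The part of span in the fold of any gene was not tested. Several gene lists are counted below also relative to the median gene, to genes of like span or to both. These scales did not always give the same balance. Relative to genes of like span, 305 of 3585 genes with a span were higher and 349 lower in the CM gate. In the EC gate 362 and 256 of 4232 were higher and lower, and in the epicardial gate 404 and 338 of 4522. List counts on these scales stand against these numbers. The percentages of all genes given with the lists below belong to the unscaled folds.

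**Figure D2:**
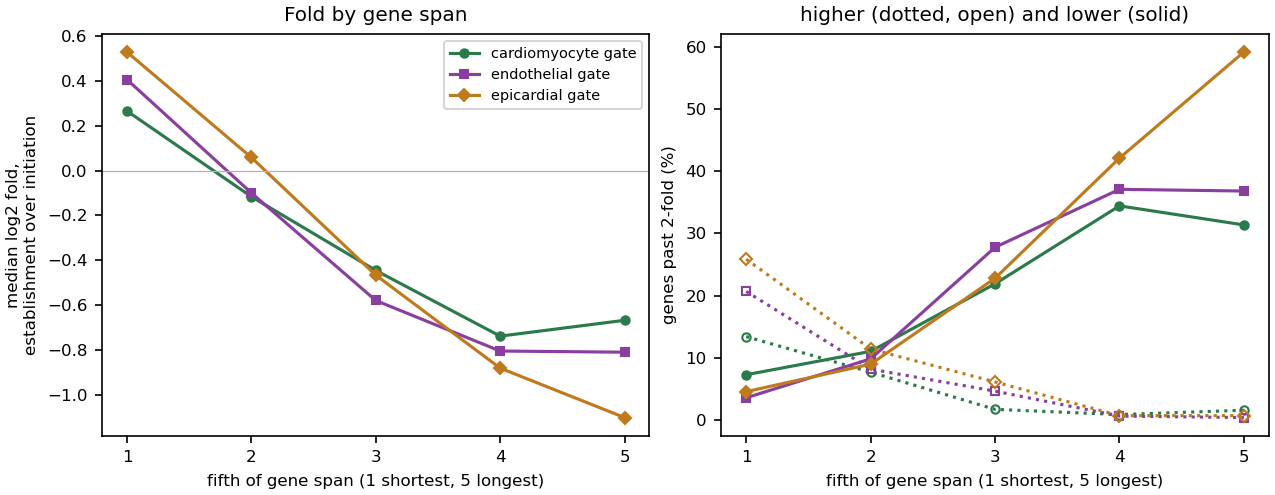
Left, median log2 fold of establishment over initiation by group of gene span (1 shortest, 5 longest) in the 3 gates; right, percent of genes past 2-fold, higher (dotted, open) and lower (solid). In the epicardial gate the median is 0.53 in the shortest group and −1.10 in the longest, and genes of the longest group are lower in 59.2% of cases.

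In the CM gate 35 of 78 nuclear genes of oxidative phosphorylation compared, which serve mitochondrial respiration, were higher at establishment and 0 lower, beside 5.07% of all genes higher, and their median log2 fold was 0.95. The gene ndufb11, a subunit of respiratory complex I, stood at 94.8 CPM at establishment and 17.4 CPM at initiation (5.46-fold, 4.83 to 6.18), and cox8b, a subunit of cytochrome oxidase, at 1060 and 410.3 CPM (2.58-fold). The ATP synthase genes atp5mea (157 CPM at establishment and 28.4 CPM at initiation, 5.52-fold) and atp5mc3a (566 and 229.7 CPM, 2.46-fold) were higher as well. The genes cox8b and atp5mea were also higher in the other gates after ambient subtraction. Their folds were 2.39 and 4.12 in the EC gate and 4.40 and 6.43 in the epicardial gate. In the remaining cells 3 of 78 were higher, beside 2.87% of all genes there, and the median was 0.70, against −0.13 over all genes of those cells. In the whole gate 18 were higher and 0 lower relative to genes of like span.

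Contractile genes went both ways. Of 33 thick and thin filament genes 5 were higher and 6 lower, beside 5.07% and 22.1% of all genes, with a median log2 fold of 0.31. In the remaining cells 3 of 27 were higher and 1 lower. The cardiac actin gene actc1a stood at 3693 CPM at establishment and 673 CPM at initiation, 5.49-fold higher (5.38 to 5.60), and in the remaining cells 4.31-fold higher. The skeletal actin gene acta1b stood at 1807 and 654 CPM (2.76-fold) and myl7 at 27429 and 12105 CPM (2.27-fold, and 1.93-fold in the remaining cells). On the lower side were myh6, with 94.8 CPM at establishment and 2890 CPM at initiation, the troponin gene tnnc1b, with 27.2 and 277 CPM, and the tropomyosin gene tpm1, with 8.53 and 181 CPM. In the remaining cells tnnc1b stood at 0.702 and 1.45 CPM and tpm1 at 1.72 and 1.54 CPM. The gate genes themselves, from which no direction is read since the gate used them, had 2058 CPM at establishment and 5213 CPM at initiation for the titin gene ttn.1, 3565 and 9171 CPM for ttn.2, and 10217 and 9985 CPM for the myosin gene myh7l.

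Of 30 genes of glycolysis and creatine kinase 6 were higher and 2 lower, beside 5.07% and 22.1% of all genes. Of 33 genes of fatty acid uptake and oxidation 6 were higher and 1 lower. In the remaining cells 4 of 28 glycolysis and creatine kinase genes were higher and 0 lower. There 2 of 33 fatty acid genes were higher and 2 lower, beside 2.87% and 7.96% of all genes. Aldolase aldoaa stood at 2086 CPM at establishment and 739 CPM at initiation (2.82-fold) and the mitochondrial creatine kinase gene ckmt2a at 311 and 80.7 CPM (3.85-fold, and 2.57-fold in the remaining cells). The carnitine carrier gene slc25a20, which moves fatty acids into mitochondria, stood at 33.1 and 10.3 CPM (3.22-fold). These stood beside hk2, a hexokinase that starts glycolysis, with 12.0 CPM at establishment and 51.9 CPM at initiation (4.31-fold lower, and 2.36-fold in the remaining cells). Outside the lists, the adenylate kinase gene ak1 had 1795 CPM at establishment and 436 CPM at initiation (4.12-fold), and myoglobin, mb, which stores oxygen in muscle, had 12103 and 4104 CPM (2.95-fold, and 2.10-fold in the remaining cells).

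Excitation and growth genes of CMs were mostly under 2-fold. Of 16 genes of calcium handling and excitation casq2, which buffers calcium in the sarcoplasmic reticulum, was higher (263 CPM at establishment, 118 CPM at initiation, 2.22-fold, and 1.84-fold in the remaining cells), and atp2a2b, a calcium pump, was lower (27.5 and 66.2 CPM, 2.41-fold lower), but stood at 25.5 and 33.5 CPM in the remaining cells, under 2-fold. The natriuretic peptide genes nppa (1484 and 1627 CPM) and nppb (1343 and 1061 CPM) did not reach 2-fold. None of the 6 cell cycle genes, 80 ribosomal protein genes and 33 heat shock genes compared passed 2-fold in either direction in this gate. Of 36 immediate early genes, which respond fast to stimulation, 1 was higher and 7 lower, beside 5.07% and 22.1% of all genes. In the remaining cells 3 were higher and 3 lower.

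The repressor her4.1, a target of Notch signalling, had the largest fold of the genes named as higher in CMs. It stood at 97.0 CPM at establishment and 7.77 CPM at initiation, 12.5-fold higher (10.5 to 15.0), and 11.4-fold higher in the remaining cells. After each cell was thinned to 2500 UMIs a her4.1 UMI was found in 13.6% of establishment cells and 2.12% of initiation cells, beside 0.142% and 0.0473% of red cells, which should lack it. At expansion her4.1 was at 42.9 CPM and at maturation at 3.31 CPM. The growth arrest gene gadd45ga stood at 402 CPM at establishment and 108 CPM at initiation (3.73-fold), the midkine gene mdka, a secreted growth factor, at 44.7 and 11.5 CPM (3.89-fold), and clu, a secreted chaperone, at 45.2 and 11.4 CPM (3.95-fold). The log2 fold of clu was 1.98 from summed UMIs and 1.1 as a mean over cells. The ambient profile held 97.1 CPM of mdka at establishment and 30.5 CPM at initiation and 63.4 and 13.9 CPM of clu, above their CM levels, and the part of ambient RNA in both was not tested.

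Hormone and insulin signalling genes were mixed in CMs and are read here against 5.07% of all genes higher and 22.1% lower. Of 15 thyroid and glucocorticoid genes 2 were higher and 3 lower. Relative to the median gene 3 were higher and 0 lower, and relative to genes of like span 4 were higher and 3 lower. The glucocorticoid target fkbp5 stood at 151 CPM at establishment and 45.4 CPM at initiation (3.33-fold, and 2.94-fold in the remaining cells), and the receptor gene nr3c1 at 46.7 and 103 CPM (2.2-fold lower). Of 13 insulin-like growth factor genes 1 was higher and 5 lower, and relative to the median gene 1 and 3. The adaptor gene irs1 stood at 93.9 CPM at establishment and 39.8 CPM at initiation (2.36-fold), the receptor gene igf1ra at 69.7 and 201 CPM (2.88-fold lower), and igf2bp2a, which binds growth factor mRNAs, at 19 and 69.1 CPM (3.63-fold lower, and 3.61-fold in the remaining cells). Of 6 retinoic acid genes 3 were lower and 0 higher, and of 8 growth factor ligand and receptor genes 2 were lower and 0 higher, with 0 of either list past 2-fold in the remaining cells. Of 7 interferon and antigen presentation genes 1 was higher and 1 lower, and of 6 natriuretic and stress genes 1 was higher and 2 lower.

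The aryl hydrocarbon receptor is a ligand-activated transcription factor that induces cyp1a, and tiparp and the ahrr genes act as its brakes. Of its 7 genes compared in the CM gate 5 were lower and 0 higher, beside 22.1% of all genes lower. Their median log2 fold was −1.51. In the whole gate 4 were lower relative to the median gene and 3 relative to genes of like span. In the remaining cells 5 were lower, beside 7.96% of all genes there, and 2 relative to the median gene of those cells. The monooxygenase gene cyp1a stood at 45.2 CPM at establishment and 237 CPM at initiation (5.25-fold lower, and 4.34-fold in the remaining cells). The receptor gene ahr2 stood at 128 and 380.4 CPM (2.98-fold lower) and tiparp at 149 and 424 CPM (2.85-fold lower). Of 25 circadian genes 6 were lower and 0 higher, and of 17 hypoxia genes 3 were lower and 0 higher. These shares were near or under that of all genes. Relative to the median gene 1 was lower and 1 higher in each list. Relative to genes of like span 4 circadian genes were lower and 1 higher, and 2 hypoxia genes were lower and 1 higher. Of the hypoxia genes pfkfb3, a regulator of glycolysis, stood at 68.4 CPM at establishment and 237 CPM at initiation (3.47-fold lower). Outside these lists, the metalloprotease gene adamts9 was at 5.14 and 73.7 CPM (14.3-fold lower, and 10.1-fold in the remaining cells).

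The genes with the largest lower folds in the CM gate mostly belonged to smooth muscle and atrium. Elastin elnb, made in the zebrafish heart by smooth muscle of the outflow tract, stood at 1.29 CPM at establishment and 192 CPM at initiation, and the smooth muscle myosin gene myh11a at 7.24 and 343 CPM. The 7 smooth muscle markers summed to 239 CPM at establishment and 1744 CPM at initiation, and the 5 atrial markers to 182 and 3121 CPM. In the remaining cells the proteoglycan gene acana was at 1.59 and 0.966 CPM, where the whole gate had 3.82 and 129 CPM. The actin-binding gene tagln changed sides, with 64.6 CPM at establishment and 162 CPM at initiation in the whole gate but 56.0 and 9.56 CPM in the remaining cells (5.86-fold higher). The locus LOC101884617 kept its fold, with 2.74 and 84.1 CPM in the whole gate (30.7-fold lower) and 2.81 and 83.8 CPM in the remaining cells (29.9-fold lower).

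**Figure D3:**
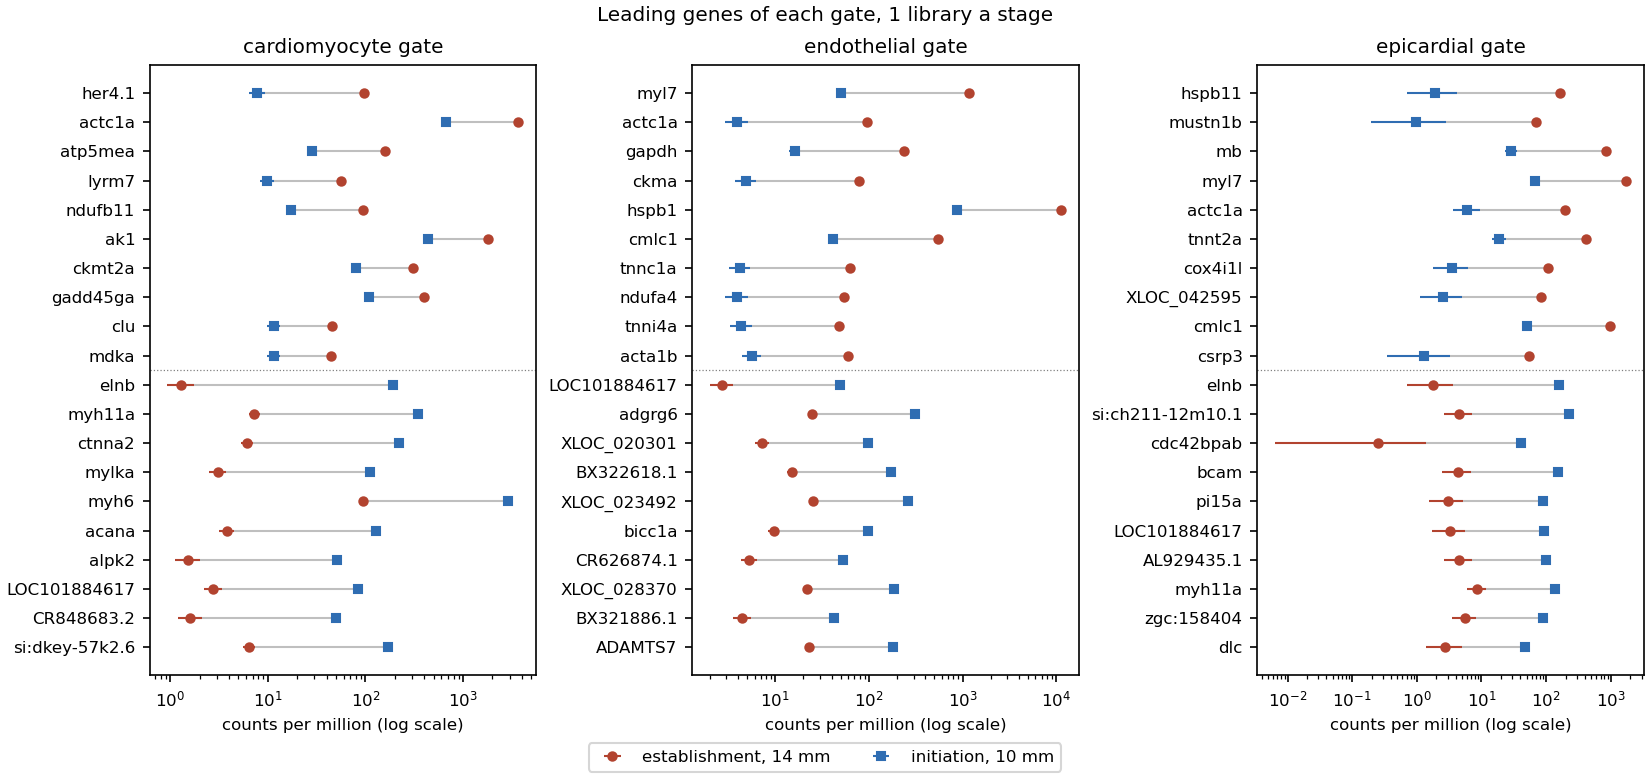
Levels (CPM, log axis) at establishment (circles) and initiation (squares) of the 10 genes in each direction and gate whose fold interval lay farthest from 1, with 95% counting intervals. In the cardiomyocyte gate actc1a lies at 3693 CPM at establishment and 673 CPM at initiation, in the endothelial gate adgrg6 lies at 24.7 and 314 CPM, and CM genes such as myl7 are among the higher genes of the endothelial and epicardial gates.

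In the EC gate CM genes had the largest higher folds before ambient RNA was subtracted. The gene myl7 stood at 1174 CPM at establishment and 50.1 CPM at initiation (23.4-fold), actc1a at 95.9 and 3.90 CPM (24.6-fold) and the creatine kinase gene ckma at 79.1 and 4.84 CPM (16.3-fold), and 5 of the 7 CM markers compared were higher. The ambient profile held CM RNA at a higher level at establishment as well, as given above for myl7. After subtraction, whose rate myl7 and cmlc1 help to set, myl7, cmlc1 and ckma were at 0 CPM in both libraries and actc1a was at 34.8 and 1.85 CPM, and none of these 4 was still compared. Among genes with levels well above the subtracted amount, the small heat shock gene hspb1 stood at 11262 CPM at establishment and 868 CPM at initiation, 13-fold higher (12.7 to 13.2) and 13.4-fold after subtraction. It was found in 87.6% of establishment cells and 46.1% of initiation cells after thinning, beside 13.5% and 1.89% of red cells.

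Heat shock genes of the EC gate went both ways. Of 29 compared 9 were higher and 3 lower, beside 6.79% and 24.2% of all genes, and relative to the median gene 12 were higher and 0 lower. The inducible chaperone genes hsp70l (5512 CPM at establishment, 1064 CPM at initiation, 5.18-fold) and hsp70.1 (5563 and 1125 CPM, 4.95-fold) were higher, although near-identical copies may share reads. Their partner bag3 stood at 582 and 123 CPM (4.75-fold), and the collagen chaperone gene serpinh1b at 374 and 90.2 CPM (4.15-fold). The lower members were the mitochondrial chaperone genes hspa9 (155 CPM at establishment, 405 CPM at initiation, 2.62-fold lower) and hspd1 (85.1 and 206 CPM, 2.42-fold lower) and the endoplasmic reticulum chaperone gene hsp90b1 (141 and 323 CPM, 2.29-fold lower). From expansion to maturation hspb1 was at 7956 and 5272 CPM and hsp70l at 3923 and 10960 CPM.

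Of 37 immediate early genes 6 were higher and 1 lower in the EC gate, beside 6.79% and 24.2% of all genes. Relative to the median gene 15 were higher and 1 lower, beside 704 and 399 of all 4538 genes. Relative to genes of like span, in contrast, 1 was higher and 3 were lower, beside 362 and 256 of 4232. The AP-1 gene jun stood at 1364 CPM at establishment and 349 CPM at initiation (3.91-fold) and socs3a, an inhibitor of cytokine signalling, at 1089 and 403 CPM (2.70-fold). Of 13 interferon and antigen presentation genes 3 were higher and 1 lower, led by the class I light chain gene b2m, with 189 CPM at establishment and 40.8 CPM at initiation (4.63-fold). Of 14 complement and chemokine genes 2 were higher and 3 lower, among them the chemokine gene cxcl8a (113 and 31.1 CPM, 3.65-fold higher) and the cytokine receptor gene lifra (51.2 and 174 CPM, 3.39-fold lower). Of 7 cell cycle genes the chromatin gene hmgb2b was higher, with 88.2 CPM at establishment and 40.5 CPM at initiation (2.18-fold), and 0 were lower. Of 7 keratin genes krt91 was higher, with 262 and 100.4 CPM (2.61-fold), and 0 were lower.

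Transport and flow genes of the endothelium stood on both sides. Of 26 genes of flow response and haemostasis 3 were higher and 5 lower, beside 6.79% and 24.2% of all genes. The fatty acid binding gene fabp11a stood at 4362 CPM at establishment and 1051 CPM at initiation (4.15-fold, and 4.31-fold after subtraction), the water channel gene aqp1a.1 at 155 and 69.3 CPM (2.24-fold) and the caveolar gene cav2 at 95 and 38.0 CPM (2.50-fold). The clotting gene vwf stood at 275 CPM at establishment and 739.8 CPM at initiation (2.69-fold lower), the stretch-activated channel gene piezo1 at 220.4 and 614 CPM (2.78-fold lower) and the caveolar gene cavin1b at 58.2 and 185 CPM (3.18-fold lower). Without the cells with at least 2 adgrg6 UMIs vwf (log2 fold −0.90) and cavin1b (−0.61) were under 2-fold. Relative to genes of like span 3 of the list were higher and 0 lower. The summed level of the list was 12845 CPM at establishment and 11823 CPM at initiation although its median log2 fold was −0.20. Myoglobin mb reached 9305 CPM at establishment and 1355 CPM at initiation in this gate (6.87-fold, and 6.93-fold after subtraction), with ambient levels of 7222 and 949 CPM. The gate genes gave 4921 and 2362 CPM for aqp8a.1, 1466 and 912 CPM for spock3, 401 and 816 CPM for the junction gene cdh5, and 2443 and 3378 CPM for the clotting factor gene f8.

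Genes of vessel growth pathways are read here against 24.2% of all genes lower and 6.79% higher in the EC gate. The list of the Vegf, Tie and Apelin pathways also holds other receptor genes, such as s1pr1 and unc5b. Of its 16 genes compared 6 were lower and 0 higher (median log2 fold −0.77), while relative to genes of like span 2 were lower and 2 higher. The sphingolipid receptor gene s1pr1 stood at 25.2 CPM at establishment and 114 CPM at initiation (4.51-fold lower), the Netrin receptor gene unc5b at 27.1 and 100.2 CPM (3.70-fold lower) and the receptor gene tie1 at 132 and 426 CPM (3.23-fold lower). The Vegf receptor gene kdrl was under 2-fold, with 147 and 189 CPM. Of 18 Notch pathway genes 5 were lower and 0 higher, and 4 and 0 relative to genes of like span. The Notch target nrarpb stood at 88.2 CPM at establishment and 255 CPM at initiation (2.89-fold lower), the receptor gene notch2 at 29.8 and 81.4 CPM (2.73-fold lower) and the arterial ligand gene efnb2a at 20.7 and 69.7 CPM (3.36-fold lower, with a log2 fold of −0.31 without the cells with at least 2 adgrg6 UMIs).

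The coronary endothelial list holds markers the study uses, some of them picked from these libraries, and is no independent evidence. Of its 7 genes compared 1 was higher and 4 were lower (median log2 fold −1.25), and relative to the median gene 1 and 2. The list summed to 4723 CPM at establishment and 1731 CPM at initiation, through fabp11a, so that sum and median differed in sign. The lower members were unc5b, efnb2a, the venous receptor gene ephb4a (47.4 and 117 CPM, 2.46-fold lower) and the early endothelial factor etv2 (20.8 and 49.6 CPM, 2.38-fold lower). Of the 10 lower genes of this gate that led by fold, most carry locus names, and the adhesion receptor gene adgrg6 stood at 24.7 CPM at establishment and 314 CPM at initiation, 12.7-fold lower (11.6 to 14.0) and 6.84-fold lower relative to genes of like span. Cells with at least 2 adgrg6 UMIs were 73 at establishment (3.62%) and 210 at initiation (17.7%). The RNA-binding gene bicc1a stood at 9.59 and 97.6 CPM (10.2-fold lower) and the metalloprotease gene ADAMTS7 at 22.7 and 180.0 CPM (7.92-fold lower).

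Of 9 aryl hydrocarbon receptor genes in the EC gate 7 were lower and 0 higher, beside 24.2% of all genes lower (median log2 fold −1.65), and 5 were lower relative to genes of like span. The gene cyp1a stood at 197 CPM at establishment and 1250 CPM at initiation, 6.36-fold lower (6.14 to 6.59) and 6.01-fold lower relative to genes of like span. It was found in 12.3% of establishment cells and 42.2% of initiation cells after thinning, beside 0.425% and 0.379% of red cells. The receptor genes ahr1b (29.6 and 133 CPM) and ahr2 (517 and 1624 CPM) were 4.49-fold and 3.14-fold lower. Of 17 hypoxia genes 6 were lower and 0 higher, beside the same 24.2%, while relative to genes of like span 3 were lower and 3 higher. They included the prolyl hydroxylase genes that mark the hypoxia factors for decay, egln1a (8.11 CPM at establishment and 41.4 CPM at initiation, 5.11-fold lower), egln2 (173 and 750.2 CPM, 4.33-fold lower) and egln1b (115 and 412 CPM, 3.58-fold lower), and the glucose transporter gene slc2a1b (93.7 and 244 CPM, 2.60-fold lower).

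The other lists of the EC gate held smaller counts and are read here against 6.79% of all genes higher and 24.2% lower. The shares of matrix genes other than collagens were near these. Of 33 matrix genes other than collagens 3 were higher and 8 lower, among them dcn, the proteoglycan decorin (158 CPM at establishment, 61.4 CPM at initiation, 2.57-fold higher), and the laminin gene lamb1b (79.7 and 299 CPM, 3.75-fold lower). Of 12 collagen genes 0 passed 2-fold. Of 17 growth factor ligand and receptor genes 1 was higher and 5 lower, and the higher one was the Wnt inhibitor gene sfrp5 (64.3 and 13.7 CPM, 4.71-fold). Of 14 insulin-like growth factor genes 6 were lower and 0 higher, and 1 and 1 relative to the median gene. Of 25 circadian genes 2 were higher and 5 lower, and of 15 thyroid and glucocorticoid genes 1 was higher and 2 lower. Of 20 glycolysis and creatine kinase genes 5 were higher and 3 lower, and after ambient subtraction 2 of 19 were higher and 3 lower. Of 9 retinoic acid genes 2 were lower and 0 higher, and of 4 natriuretic and stress genes 1 was higher. Of 80 ribosomal protein genes 1, rpl6, was lower.

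**Figure D4:**
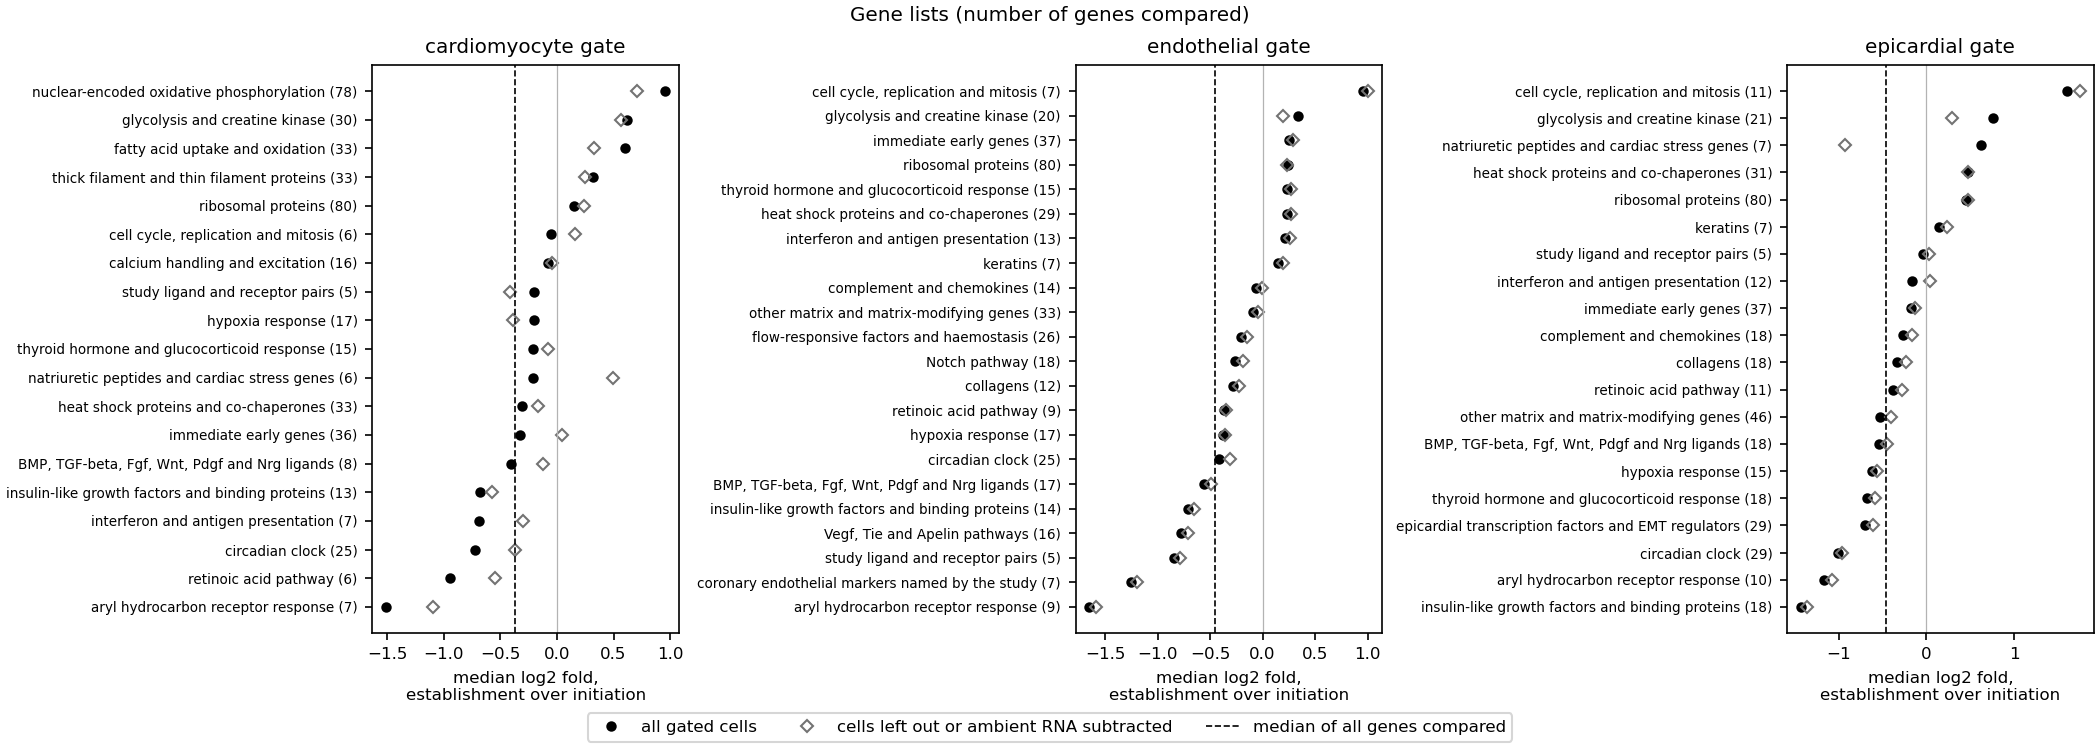
Median log2 fold of each gene list in the 3 gates (filled, all gated cells; open, remaining cells in the cardiomyocyte gate or ambient RNA subtracted in the other gates), with the median of all genes as a dashed line and the number of genes compared in brackets. Oxidative phosphorylation has a median of 0.95 in the cardiomyocyte gate, cell cycle genes 1.60 in the epicardial gate, and aryl hydrocarbon receptor genes −1.51, −1.65 and −1.16 from left to right.

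In the epicardial gate 8 of 11 cell cycle genes compared, of DNA replication and chromatin, were higher at establishment and 0 lower, beside 8.75% of all genes higher, with a median log2 fold of 1.60, and 6 were higher relative to genes of like span. The replication clamp gene pcna stood at 199 CPM at establishment and 48.2 CPM at initiation, 4.13-fold higher (3.46 to 4.94). The nucleotide enzyme gene dut stood at 52.8 and 11.8 CPM (4.47-fold), the microtubule regulator gene stmn1a at 63.1 and 11.2 CPM (5.65-fold) and the chromatin gene hmgn2 at 681 and 199 CPM (3.42-fold). As means over cells the log2 folds of dut and stmn1a were 1.15 and 1.73. Of the 52 list genes in the data, 41 were under the filter and not compared. The initiation levels of dut and stmn1a were under the 20 CPM minimum, so they met it through their establishment levels. A pcna UMI was found in 14.9% of establishment cells and 6.80% of initiation cells after thinning, beside 1.06% and 0.473% of red cells. At expansion pcna was at 53.9 CPM and at maturation at 37.5 CPM. Of 80 ribosomal protein genes 2 were higher and 0 lower.

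Of 31 heat shock genes in the epicardial gate 10 were higher and 0 lower, beside 8.75% of all genes higher, and 5 were higher relative to genes of like span. The gene hspb1 stood at 3833 CPM at establishment and 670.3 CPM at initiation (5.72-fold, and 5.46-fold after subtraction), and serpinh1b at 485 and 164 CPM (2.95-fold, and 3.14-fold after subtraction). The small heat shock gene hspb11 had 165 CPM at establishment and 1.92 CPM at initiation from 6 UMIs, 86.0-fold (39.3 to 235), and 106 CPM was left at establishment and 0 at initiation after subtraction. CM genes were among the higher ones here too, with myl7 at 1694 and 67.7 CPM (25.0-fold) and 8 of 9 CM markers higher. After subtraction myl7 was at 0 and 1.70 CPM and no longer compared. Other CM genes still led the higher side after subtraction, and some of their folds grew. These were tnnt2a (21.9-fold before, 123-fold after), cmlc1 (19.1-fold and 103-fold) and actc1a (32.4-fold and 28.7-fold). The epicardial gate shared 12 establishment cells and 10 initiation cells with the CM gate. Without cells of several gates or with over 5% globin, 352 genes of the epicardial gate were higher and 1404 lower. Myoglobin mb stood at 832 CPM at establishment and 29.0 CPM at initiation, and at 95.6 and 6.72 CPM after subtraction. Of 21 glycolysis and creatine kinase genes 10 were higher and 2 lower, and after subtraction 6 of 19 were higher and 2 lower. Of 7 natriuretic and stress genes 3 were higher and 3 lower, and after subtraction 1 and 2 of 5.

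Cytokine and keratin genes of the epicardial gate stood on both sides. Of 18 complement and chemokine genes 4 were higher and 6 lower, beside 8.75% and 28.7% of all genes. The chemokine genes cxcl8b.1 (316 CPM at establishment, 80.8 CPM at initiation, 3.91-fold) and cxcl8a (418 and 115 CPM, 3.63-fold), the macrophage growth factor gene csf1a (86.0 and 21.4 CPM, 4.02-fold) and the cytokine gene il11a (252 and 101 CPM, 2.51-fold) made up the higher side. The complement gene cfd was among the lower ones, at 176 and 488 CPM (2.77-fold lower), whereas in the EC gate it was higher, at 352 and 138 CPM (2.54-fold). Of 7 keratin genes krt18a.1 was higher, at 1264 CPM at establishment and 392 CPM at initiation (3.22-fold), and at 395 and 481 CPM at the later stages. Of 12 interferon and antigen presentation genes 2 were higher and 2 lower, b2m with 229.0 and 79.2 CPM (2.90-fold higher). Of 37 immediate early genes 1 was higher and 5 lower. Relative to the median gene 4 were higher and 1 lower, beside 876 and 558 of all 4837 genes. Relative to genes of like span, in contrast, 1 was higher and 10 were lower, beside 404 and 338 of 4522.

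The factors that mark and remodel the epicardium were mixed. Of 29 epicardial transcription factor and transition genes 3 were higher and 9 lower (median log2 fold −0.70), beside 8.75% and 28.7% of all genes. Relative to genes of like span 3 were higher and 3 lower. The transition genes snai1a (81.7 CPM at establishment, 35.8 CPM at initiation, 2.29-fold) and twist1b (29.2 and 14.0 CPM, 2.08-fold) and the forkhead gene foxc1b (2.2-fold) were higher. The T-box gene tbx20 stood at 17.3 CPM at establishment and 142 CPM at initiation, 8.21-fold lower (6.36 to 10.7) and 7.41-fold lower relative to genes of like span. The epicardial factor wt1a stood at 87.5 and 265 CPM (3.02-fold lower, and 1.88-fold relative to genes of like span), and its paralog wt1b at 154 and 158 CPM. The factor tbx18 was at 175 and 330.4 CPM, under 2-fold. At expansion and maturation wt1a was at 327 and 368 CPM and tbx20 at 24.9 and 11.7 CPM.

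**Figure D5:**
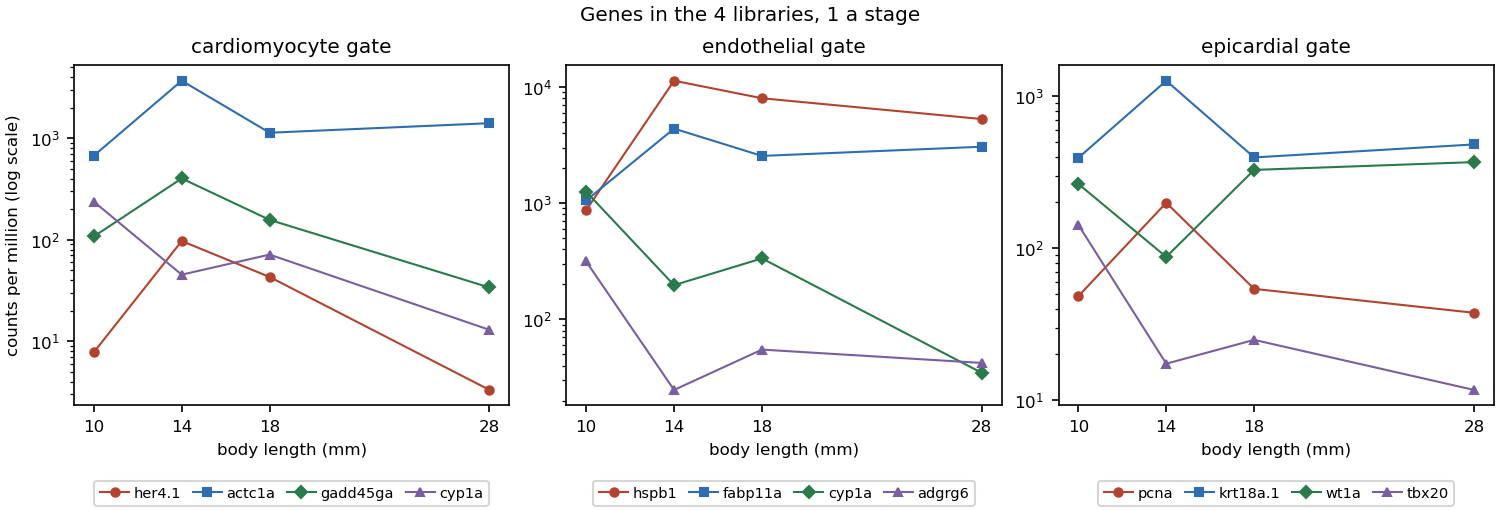
Levels (CPM, log axis) of 4 genes in each gate against body length (mm), 1 library per stage. In the epicardial gate pcna is at 199 CPM and krt18a.1 at 1264 CPM at 14 mm, above the other stages, while wt1a is at 87.5 CPM, below them, and in the endothelial gate cyp1a is at 1250 CPM at 10 mm.

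Retinoic acid and matrix genes are read here against 8.75% of all genes higher and 28.7% lower in the epicardial gate. Of 11 retinoic acid genes 1 was higher and 4 lower, shares near those of all genes. The retinol enzyme gene rdh10b stood at 353 CPM at establishment and 154 CPM at initiation (2.29-fold), the next enzyme, aldh1a2, at 649.9 and 496 CPM, under 2-fold, and the receptor gene raraa at 134 and 342 CPM (2.55-fold lower). Of 18 collagen genes 1 was higher and 6 lower, but relative to genes of like span 3 were higher and 0 lower. The basement membrane gene col4a2 stood at 139.8 CPM at establishment and 492 CPM at initiation (3.52-fold lower, and 1.61-fold relative to genes of like span), and col12a1b, a fibril-associated collagen, at 163 and 80.8 CPM (2.02-fold higher, with a log2 fold of 0.59 as a mean over cells). Of 46 other matrix genes 2 were higher and 12 lower. The hyaluronan linker gene hapln1a stood at 82.0 and 25.5 CPM (3.21-fold higher), and elastin elnb at 1.76 CPM, from 7 UMIs, at establishment and 158 CPM at initiation, 90-fold lower (43.3 to 225). Smooth muscle markers summed to 247 CPM at establishment and 736 CPM at initiation in this gate. Without the cells with at least 10 UMIs of the smooth muscle genes myh11a, tagln and acta2 together, elnb had 0 UMIs at establishment and 1 UMI at initiation, where the whole gate had 7 and 496.

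Of 18 insulin-like growth factor genes 13 were lower and 1 higher in the epicardial gate (median log2 fold −1.43), beside 28.7% of all genes lower. This was the largest share of lower genes of any list there, but relative to genes of like span 3 were lower and 0 higher. The binding protein gene igfbp3 stood at 17.6 CPM at establishment and 88.1 CPM at initiation (5.01-fold lower), and igfbp1a, another binding protein gene, at 50 and 18.2 CPM (2.75-fold higher, with a log2 fold of 0.89 as a mean over cells). Of 18 growth factor ligand and receptor genes 6 were lower and 0 higher, including tgfb2 (176 and 389 CPM, 2.21-fold lower). Of 18 thyroid and glucocorticoid genes 6 were lower and 0 higher, led by the thyroid receptor gene thrab, with 22.1 CPM at establishment and 110.4 CPM at initiation (4.99-fold lower). Of 15 hypoxia genes 1 was higher and 6 lower.

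Of 29 circadian clock genes in the epicardial gate 15 were lower and 0 higher, beside 28.7% of all genes lower (median log2 fold −1.0), and 7 were lower relative to the median gene and 11 relative to genes of like span. The clock repressor genes per2 (121 CPM at establishment, 479 CPM at initiation, 3.95-fold lower) and cry1ba (27.9 and 109 CPM, 3.92-fold lower) and the activator gene arntl1b (6.54 and 35.1 CPM, 5.37-fold lower) were among them. The hour of dissection was not given in the sources used here. Of 10 aryl hydrocarbon receptor genes 5 were lower and 0 higher (median log2 fold −1.16), 2 relative to genes of like span. The gene cyp1a stood at 31.7 CPM at establishment and 261 CPM at initiation (8.25-fold lower, and 8.98-fold relative to genes of like span), and its repressor ahrrb at 4.78 and 58.4 CPM (12.2-fold lower). Among the genes that led the lower side, the laminin receptor gene bcam stood at 4.27 and 155 CPM (36.4-fold lower) and the Notch ligand gene dlc at 2.77 and 47.2 CPM (17.1-fold lower).

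Of the ligand and receptor pairs that the study discusses, 5 genes were compared in each gate and 0 were higher. In the CM gate 1 was lower, in the EC gate 1 and in the epicardial gate 2. Of all genes 22.1%, 24.2% and 28.7% were lower in these gates. In the remaining cells of the CM gate 0 of 5 were lower. After ambient subtraction 0 of 5 were lower in the EC gate and 2 of 5 in the epicardial gate. The growth factor gene hbegfa stood at 94.4 CPM at establishment and 202 CPM at initiation in the CM gate (2.14-fold lower), but at 90.6 and 131 CPM in the remaining cells (1.45-fold lower). In the EC gate it stood at 277 and 482 CPM (1.74-fold lower) and in the epicardial gate at 164 and 169 CPM. Its receptor gene erbb4b stood at 131 CPM at establishment and 139 CPM at initiation in the CM gate and at 7.54 and 32.9 CPM in the epicardial gate (4.36-fold lower). The vessel growth factor gene vegfaa stood at 102 and 117 CPM in the CM gate, 34.7 and 25.0 CPM in the EC gate and 348 and 257 CPM in the epicardial gate, under 2-fold in each. The adhesion gene pvrl2l stood at 30.9 and 63.2 CPM in the EC gate (2.04-fold lower, and 1.49-fold relative to the median gene) and at 45.5 and 101 CPM in the epicardial gate (2.21-fold lower), and nectin3b at 22.4 and 40.2 CPM in the EC gate (1.80-fold lower).

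The 3 gates share the same pair of libraries, so a gene that moved the same way in each is not a separate replication. In the remaining CMs and after ambient subtraction in the other gates, 2339 genes were compared in all 3 gates. Of these 14 (0.599%) were higher and 99 (4.23%) lower in each gate. The lower ones included the red cell gene alas2, and globin made up 30.0% of the ambient profile at establishment and 39.2% at initiation. The red cell gene rhag was lower too, but its level differed between the gates. It stood at 110 and 534 CPM in the epicardial gate after subtraction. In the EC gate it stood at 18.3 and 56.0 CPM after subtraction, and in the remaining CMs at 9.06 and 31.0 CPM. The higher ones included the muscle gene mb, whose ambient level was also higher at establishment, as given above. In the EC gate mb was above its ambient level in both libraries. After subtraction it stood there at 9448 CPM at establishment and 1363 CPM at initiation. Also among the higher ones were atp5mea, cox8b, clu, mdka and fabp11a, which are described above under single gates. The part of ambient RNA left in these counts was not tested, so they are not read as changes within all 3 cell classes. With these limits, cyp1a was lower at establishment by 4.34-fold in the remaining CMs. After ambient subtraction it was 6.14-fold lower in the EC gate and 8.72-fold lower in the epicardial gate. The transcript zgc:158463, which has no descriptive name, stood at 2394 CPM at establishment and 15619 CPM at initiation in the remaining CMs (6.52-fold lower). In the epicardial gate it stood at 1672 and 9762 CPM after ambient subtraction (5.84-fold lower). In the EC gate the difference was smaller, with 1091 and 3323 CPM after ambient subtraction (3.05-fold lower). In contrast, b2m was higher by 2.44-fold in the remaining CMs, and after subtraction by 4.78-fold in the EC gate and 3.03-fold in the epicardial gate.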

How the data were processed

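The deposited files give untransformed UMI counts for every gene in every barcode of 4 libraries; the authors made them with Cell Ranger (version 6.1.2 in the methods, 7.1.0 in the file headers) on the zebrafish genome GRCz11. Whether intronic reads were counted was not given in the sources used here, these versions differ by default in counting introns, and the part of this in the trend with gene span was not tested. Seurat 4 is named in the processing notes. The counts cover 36351 genes. Cells were filtered and gated as described, UMIs were summed per gate and library, and CPM used all genes. Mitochondrial genes were taken as the 12 names that start with mt-, both in the cell filter and below. These, globin genes and gate genes were left out of the comparisons. The feature NC_002333.17, which has the name of the mitochondrial genome record but no mt- prefix, stayed in the comparisons. No doublet caller was run. A count of 0 was set to 3 counts as a bound. There was 1 library per stage, so no replicate error and no p-value exists, and intervals cover counting error alone. The deposited UMIs totalled 123557700 at establishment and 115624753 at initiation, and the median cell held 12637 and 13261.

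In each gate and direction, the 10 genes whose interval bound was farthest from 1 were eligible for naming where they stayed past 2-fold after ambient subtraction at the rate set by globin, with up to 4 members per list in each direction and 6 genes the study discusses; the report names part of these, and further genes were chosen after their values were seen. The cells, gates and 29 lists were chosen with earlier results of these data known. Gene spans come from RefSeq (assembly GRCz12tu) and serve only to rank genes by length. Python 3.11.15, numpy 2.4.6, scipy 1.17.1, pandas 2.3.3 and R 4.3.3 with edgeR 4.0.16 (TMM factors) and DESeq2 1.42.0 (median-of-ratios factors) were used, and the fold script was tested on simulated data.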

Additional observations from a re-analysis of the deposited data

How the results depend on the processing

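The counts of genes past 2-fold depended on the scale and the filter. In the cardiomyocyte gate, genes higher and lower were 684 and 331 with TMM factors, 513 and 435 with median-of-ratios factors, 1600 and 9262 with no filter but 1 UMI, 117 and 292 at a mean of 50 CPM and 100 UMIs, 99 and 274 without atrial and smooth muscle cells, 305 and 349 relative to genes of like span, and 23 and 313 at a limit of 3-fold. In the endothelial gate they were 674 and 437, 704 and 399, 4034 and 8326, and 133 and 556 under the first 4 of these, 88 and 281 at 3-fold, and 362 and 256 relative to genes of like span. In the epicardial gate they were 882 and 551, 876 and 558, 3891 and 7164, and 217 and 642, then 149 and 409 at 3-fold, 259 and 747 by the nearer interval bound, and 404 and 338 relative to genes of like span. The share of cells at establishment was 27.3% (cardiomyocyte) and 3.02% (epicardial) with the gate minimum doubled, and 32.2% (cardiomyocyte) and 28.6% (endothelial) at 5000 UMIs; at initiation it was 18.3% (cardiomyocyte) and 2.53% (epicardial) with the gate minimum doubled. Of 3992 values of 300 gene folds under alternatives other than the filters, 2481 stayed within their counting interval, 1508 moved and 3 reversed, namely tagln in cardiomyocytes (log2 fold 2.55 without atrial and smooth muscle cells) and npr1a (0.077) and rarab (0.070) in the epicardial gate relative to genes of like span. A further 100 values fell under the filter and were not counted, among them acana and tpm1 in the remaining cardiomyocytes, whose levels changed sides there. The removal of atrial and smooth muscle cells, the subtraction at the rate of cardiomyocyte genes and the span scaling were chosen after seeing the data. The causes of these shifts were not tested. No paired analysis was possible because each stage is 1 library, and for the same reason no library could be left out.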

Other observations

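Red blood cells were taken as cells with over 50% of UMIs from globin genes (1413 at establishment, 2113 at initiation), whether or not they met a gate. The embryonic globin gene hbae1.1 stood at 6.77 CPM at establishment and 371 CPM at initiation, 54.8-fold lower, and hbbe1.1 at 6.01 and 113 CPM, 18.7-fold lower. The adult genes hbba2 (7775 and 1051 CPM, 7.40-fold higher) and hbaa2 (1947 and 591 CPM, 3.29-fold higher) were higher at establishment, while the most abundant adult genes, hbaa1 (237152 and 216913 CPM) and hbba1 (401721 and 383862 CPM), were close in both. The embryonic genes hbae5 (13.4 and 13.2 CPM) and hbbe2 (6.77 and 6.62 CPM) were near their initiation level. Globin genes are near copies of each other, so the assignment of reads among them is uncertain.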
